A study of Mus musculus with 7 samples.

Results

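The collagens, laminins and integrins described here are the 84 genes whose mouse symbols start with Col, Lam or Itg followed by a chain number or letter, out of 21862 genes in the deposited matrix. They comprise 43 collagen chains, 11 laminin chains and 25 integrin chains. The remaining 5 symbols match by spelling only: Col4a3bp encodes a ceramide transfer protein, Itgb1bp1, Itgb1bp2 and Itgb3bp encode proteins named for binding an integrin tail, and Itgbl1 encodes an integrin beta-like protein. RNA was measured in single cells of the dorsal forebrain of embryos of CD-1, an outbred mouse stock. The tissue was dissociated with papain and cells were captured by Drop-seq, in which mRNA is copied from its 3' end onto beads whose primers carry a cell barcode and a unique molecular identifier (UMI). The groups are 6 stages by embryonic day (E): E10.5, E12.5 and E14.5, then E15.5, E16.5 and E18.5. E14.5 has 2 samples and each of the others has 1. The labels name no treatment, mutation or transgene, and do not say how many embryos or litters gave a sample.

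Collagens are triple helices that form fibrils, such as those of types I, III, V and XI, or sheets, such as the type IV network of basement membranes. Laminins are trimers of an alpha, a beta and a gamma chain, and with type IV collagen they build the basement membranes under the pia and around blood vessels, to which the end feet of radial glia attach. Integrins are receptors of an alpha and a beta chain: the beta 1 chain pairs with many alpha chains to bind collagens, laminins and fibronectin, and the pair of the alpha V and beta 8 chains binds and activates latent transforming growth factor beta.

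The matrix held 10261 cells in 12 libraries, with 387 to 3235 cells and 1519473 to 6638760 UMIs per sample. The median cell held 1645 to 3352 UMIs, and the median mitochondrial share was 2.25% to 7.53%. The depositors gave each cell 1 of 19 cluster numbers, called labels here, and names were attached to them from marker lists. Labels 1, 3, 6, 10 and 12 were apical progenitor-like (the radial glia that line the ventricle and their precursors), labels 4 and 7 intermediate progenitor-like, and labels 2, 5, 9 and 11 projection neuron-like. Label 14 (213 cells) was choroid plexus and hem-like, label 15 (142 cells, all from E10.5) mesenchyme-like, label 16 (50 cells) endothelial-like, label 17 (32 cells) microglia and macrophage-like, and label 18 (25 cells) mural-like, mural cells being the pericytes and smooth muscle of vessel walls. In label 12, 4 of 7 oligodendrocyte lineage markers also exceeded their level outside it by 2-fold or more. Label 0, the largest (1812 cells), was left unnamed and entered none of the classes compared below. In it, 6 of 15 intermediate progenitor markers and 4 of 20 projection neuron markers passed 2-fold. Libraries shared 4 cell barcodes (13 cells), and 1 library of the larger E14.5 sample was assigned to it by inference from its name. The labels were made by clustering the same counts, so differences between them are descriptions without a test. Mesenchyme, endothelial and mural cells were too few for a test over samples, and their intervals are exact Poisson 95% intervals that cover counting error only. Levels are in CPM, UMIs scaled to the total of a label or class and not divided by transcript length, so they compare cells for 1 gene and not 1 gene with another.

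The 250 bases before the transcription start of 4 members that the results turn on are shown first, because these genes mark 4 of the patterns below: the fibrillar collagen chain Col3a1 of the mesenchyme, the collagen receptor chain Itga1 of vessel cells, Itgb1 in every label, and Col11a1 in late neurons. The windows are from RefSeq on GRCm38.p6, on the strand of the gene. They lie at chr1:45311288-45311537 (plus strand) for Col3a1, chr13:115101965-115102214 (minus strand) for Itga1, chr8:128685404-128685653 (plus strand) for Itgb1 and chr3:114030290-114030539 (plus strand) for Col11a1, and none overlapped an annotated exon. Capitals mark matches, on either strand, to the TATA-like TATAAA, the CCAAT box CCAAT (which reads ATTGG where it lies on the reverse strand) or the GC box GGGCGG.
Col3a1: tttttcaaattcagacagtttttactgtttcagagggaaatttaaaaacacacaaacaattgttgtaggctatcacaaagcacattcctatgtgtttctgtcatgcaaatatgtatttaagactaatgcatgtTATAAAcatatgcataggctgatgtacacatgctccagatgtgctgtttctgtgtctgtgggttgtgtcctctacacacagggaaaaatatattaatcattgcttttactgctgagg
Itga1: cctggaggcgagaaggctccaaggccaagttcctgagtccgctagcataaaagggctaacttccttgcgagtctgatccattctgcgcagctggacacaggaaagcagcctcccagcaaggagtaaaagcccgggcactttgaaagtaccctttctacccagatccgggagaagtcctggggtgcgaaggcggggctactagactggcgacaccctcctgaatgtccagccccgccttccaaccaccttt
Itgb1: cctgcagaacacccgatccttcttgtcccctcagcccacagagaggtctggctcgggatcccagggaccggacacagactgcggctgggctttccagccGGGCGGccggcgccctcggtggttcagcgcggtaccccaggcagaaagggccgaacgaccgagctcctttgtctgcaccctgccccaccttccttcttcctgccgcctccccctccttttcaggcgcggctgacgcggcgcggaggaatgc
Col11a1: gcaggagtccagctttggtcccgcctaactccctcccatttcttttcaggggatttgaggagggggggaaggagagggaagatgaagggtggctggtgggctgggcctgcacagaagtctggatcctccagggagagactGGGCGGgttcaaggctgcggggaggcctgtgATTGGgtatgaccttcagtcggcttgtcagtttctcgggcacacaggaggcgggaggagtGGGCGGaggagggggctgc
The Col3a1 window had a GC content of 35.2% and 1 TATAAA, whose first base lies 117 bases before the start. The Itgb1 window had a GC content of 68.0% and 1 GGGCGG at 151 bases, and the Col11a1 window 62.4% with 3 matches. The Itga1 window (57.6%) held none of these letters. Of all 32851 windows of this length, 12.4% held TATAAA, 33.8% CCAAT and 32.7% GGGCGG. Of the 66 windows found for 60 of the 84 members, 6.06% held TATAAA, 27.3% CCAAT and 48.5% GGGCGG. Lama4, Col1a1, Col5a2, Col12a1 and Itga6 had no entry.

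The members were a small part of the RNA captured, and most of the members seen at a substantial level were highest in mesenchyme or vessel cells. Together they had 24697 UMIs, 0.0891% of all 27776936, of which Itgb1 alone had 6435. A level of 50 CPM in at least 1 label was reached by 34 members, 40.5% of them against 37.4% of all genes, and 30 of these had at least 10 UMIs there. The exceptions were Col16a1, Itgav and Lamc3, at 4 UMIs each in label 18, and Itgb2, at 9 UMIs in label 17. Of the 34, 11 were highest in the mesenchyme-like label, 6 in the endothelial-like and 11 in the mural-like label, 82.4% in all, against 30.2% of all genes at this level. Col3a1, Col1a2 and Col4a1 were among the 10 leading genes of labels 15 or 18, so this share was partly set by the clustering. It was also partly set by the level itself, a filter that all genes shared. Some members reached 50 CPM only in the label where they were highest, among them Col5a1, Itga9 and Col15a1. In the mural-like label, Itgb1bp1 was highest on 4 UMIs, as were Col16a1, Itgav and Lamc3. The other 50 members had highest levels between 1.07 and 49.1 CPM, and 19 members had fewer than 10 UMIs in all cells together. Just outside the level, named after their values were seen, were Itgal, at 49.1 CPM in label 17 on 6 UMIs, and Itga8, at 45.0 CPM in label 15 on 29 UMIs.

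**Figure D1:**
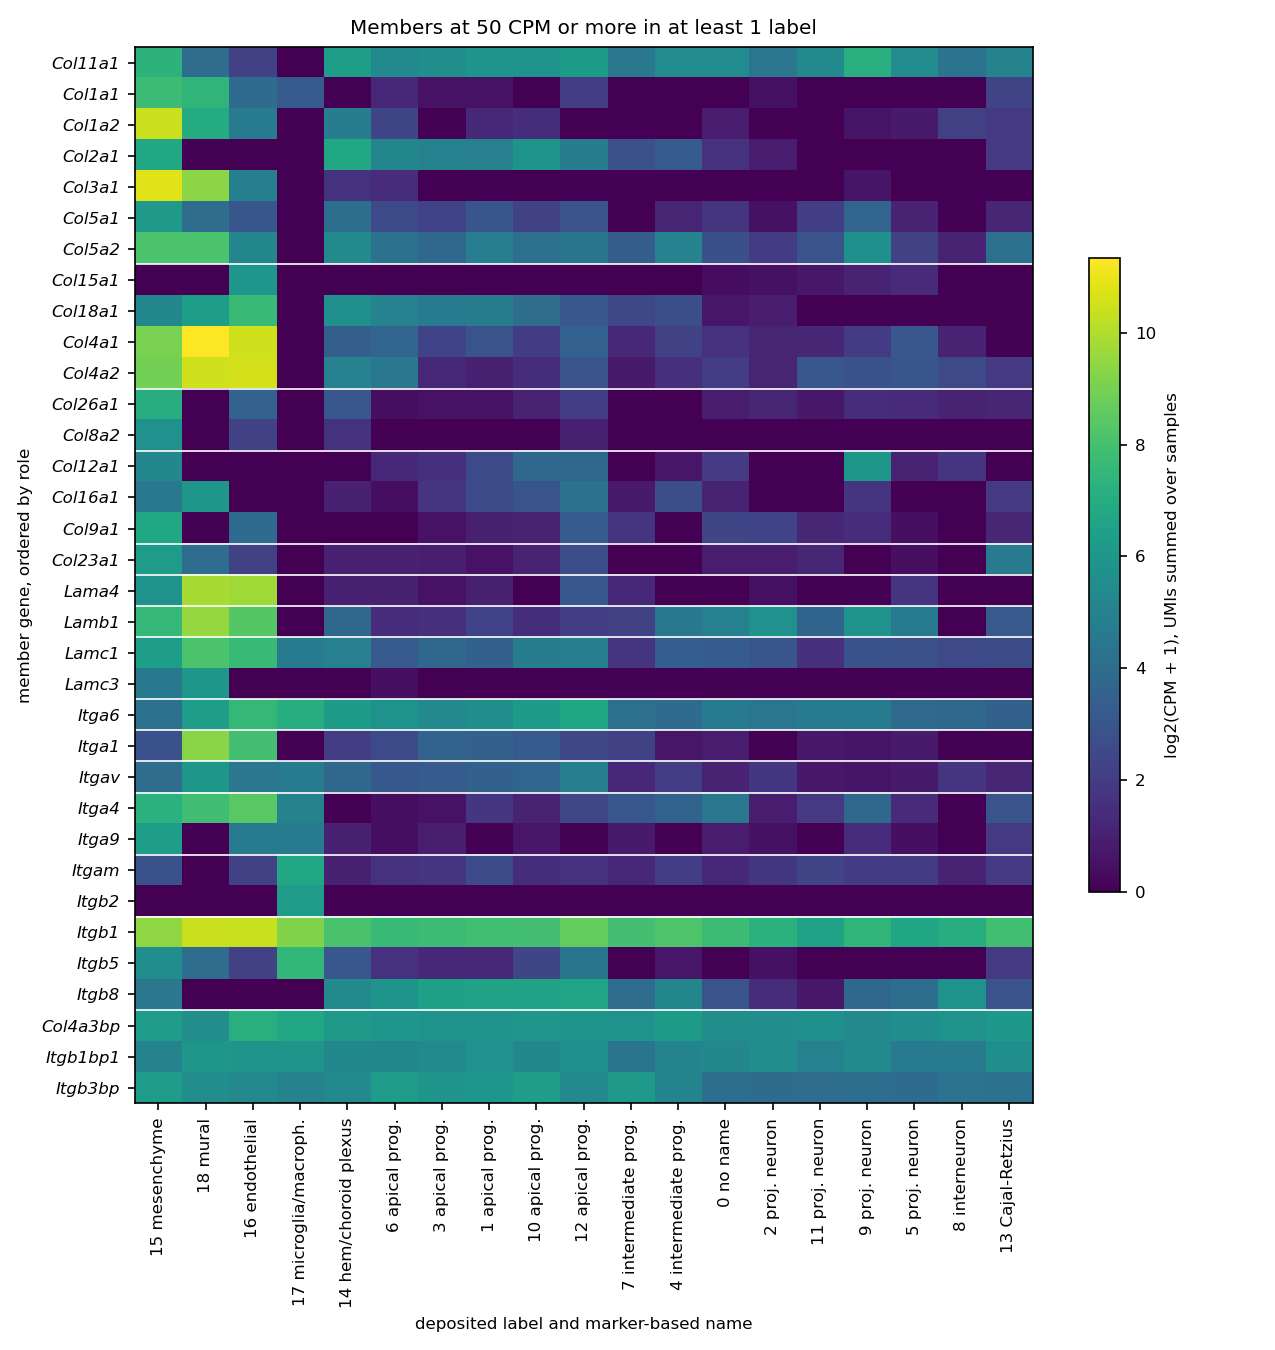
Level of the 34 members with at least 50 CPM in a label (rows, ordered by role) in the 19 deposited labels (columns), as log2(CPM + 1) of the summed UMIs. Col3a1 was at 1755 CPM in label 15, Col4a1 was high in labels 15, 16 and 18, and Itgb1 was found in all 19 labels.

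Of the 11 fibrillar collagen chains, 7 reached 50 CPM in a label, and the chains of type I and III fibrils were highest in mesenchyme-like cells, followed by mural-like cells. Col3a1, the chain of type III collagen, was at 1755 CPM in mesenchyme-like cells (1131 UMIs, interval 1654 to 1860) and 657 CPM in mural-like cells (42 UMIs, 473 to 888). It was at 28.9 CPM in the endothelial-like label, from 8 UMIs that lay in 1 cell of E10.5, and at 2.15 CPM or less in all others. Col1a2, the alpha 2 chain of type I collagen, was at 1372 CPM in mesenchyme-like cells (1283 to 1465) and 125 CPM in mural-like cells, on 884 and 8 UMIs. Col1a1, the alpha 1 chain, was at 217 and 172 CPM in the same labels, on 140 and 11 UMIs. These 3 genes thus shared their source labels. Col5a2, a chain of the type V collagen that is built into type I fibrils, was at 281 CPM in both labels (181 and 18 UMIs), and at 51.4 CPM in projection neuron-like label 9. Col5a1 was at 68.3 CPM in mesenchyme-like cells. Col3a1 and Col5a2 are neighbours on chromosome 1 (45311538 to 45349706 and 45374321 to 45503282 on GRCm38).

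Col1a2 was also found with few UMIs of Col3a1 and none of Col1a1 in label 14, the choroid plexus and hem-like cells. At E10.5, 24 Col1a2 UMIs and 2 Col3a1 UMIs were counted in its 175 cells, so that Col1a2 made up 92.3% of the sum of both (exact Clopper-Pearson 95% interval 74.9 to 99.1), against 43.9% in mesenchyme-like cells (41.7 to 46.1). Apical progenitor-like label 6 had 12 and 5 UMIs, 70.6% (44.0 to 89.7). Cells with a Col1a2 UMI were 8.0% of label 14 (4.44 to 13.1, median depth 3539 UMIs), 1.77% of label 6 (0.887 to 3.15, median depth 3611) and 84.5% of label 15 (median depth 3838). For Col3a1 the shares were 1.14%, 0.805% and 90.1%. The share of cells with Col1a2 thus differed between labels 14 and 6 beyond counting error at like depth, and the share with Col3a1 did not. Label 14 had no Col1a1 UMI and no UMI of the mesenchyme marker Twist1, against 140 and 165 UMIs in label 15, but it had 34 UMIs of Col5a2. In the interneuron-like label 8 of E10.5, 3 Col1a2 UMIs and no Col3a1 UMI were counted in 30 cells, all in separate cells, a share of 10% with Col1a2 (2.11 to 26.5). This ratio was noticed in these data and has no replicate, since 175 of the 213 cells of label 14 came from E10.5.

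The fibrillar chains Col2a1 and Col11a1, best known from cartilage, were found in neural cells as well. Col2a1, the chain of type II collagen, was at 109 CPM in mesenchyme-like cells and 108 CPM in choroid plexus and hem-like cells (88.3 to 132), and between 26.7 and 57.5 CPM in the 5 apical progenitor-like labels. Col11a1, a chain of type XI collagen, was at 159.8 CPM in mesenchyme-like cells (103 UMIs) and at 143 CPM in projection neuron-like label 9 (248 UMIs, 126 to 162), 2 values whose intervals overlapped. It was lower in choroid plexus and hem-like cells at 80.5 CPM, in apical progenitor-like label 12 at 70.5 CPM and in label 1 at 58.1 CPM.

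Of 24 collagens of other kinds, 6 reached 50 CPM, of which 4 were highest in mesenchyme-like cells, 1 in mural-like cells and 1 in neurons. Col26a1 was at 132 CPM, Col9a1, a chain of the type IX collagen that coats type II fibrils, at 109 CPM, and Col8a2, a short-chain collagen, at 52.8 CPM in label 15. The next highest label of each was the endothelial-like one, at 10.8, 14.5 and 3.61 CPM. These levels rested on 3, 4 and 1 UMIs, and the 4 of Col9a1 lay in 1 cell. Col23a1, a collagen that spans the cell membrane, was at 76.0 CPM in label 15 and 25.1 CPM in the Cajal-Retzius-like label 13. Col16a1, a fibril-associated collagen, rested on 4 UMIs in mural-like cells (62.6 CPM), with 23.3 CPM in label 15 and 18.2 CPM in label 12. Col12a1, a collagen that associates with fibril surfaces, was highest in projection neuron-like label 9, at 62.3 CPM (108 UMIs, 51.1 to 75.2), and was at 37.2 CPM in label 15.

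Of the 8 basement membrane collagens, 4 reached 50 CPM in a label, each with its highest level in mural-like or endothelial-like cells. These labels hold few cells, so a high level there is not the main part of every gene's UMIs. Col4a1, the alpha 1 chain of the main type IV trimer, was at 2580.4 CPM in mural-like cells (165 UMIs, 2202 to 3006), 1463 CPM in endothelial-like cells (405 UMIs, 1324 to 1613) and 528 CPM in mesenchyme-like cells (340 UMIs, 473 to 587). It was at most 11.9 CPM in every other label, with 0 UMIs in the microglia and macrophage-like label, where 3 UMIs would be 24.6 CPM. Its partner Col4a2 was at 1454 CPM in mural-like cells (1174 to 1782), 1532 CPM in endothelial-like cells (1390 to 1685) and 499.6 CPM in mesenchyme-like cells (447 to 557). Summed over samples, the order of the mural-like and endothelial-like labels was thus beyond counting error for Col4a1 and not for Col4a2. The labels differ in stage: 15 of the 25 mural-like cells came from E14.5 replicate 1, and 20 of the 50 endothelial-like cells from E18.5. Within E14.5 replicate 1, Col4a1 was at 2864 CPM in mural-like (2320 to 3497) and 1808 CPM in endothelial-like cells (1319 to 2419), with overlapping intervals. Col4a1 and Col4a2 lie head to head on chromosome 8, their annotated starts 21 bases apart. An antisense gene model overlaps the 3' end of Col4a1, whose reads cannot be told apart without the strand. Col18a1, whose C-terminal fragment is endostatin, was at 202 CPM in endothelial-like cells (153 to 263) and 78.2 CPM in mural-like cells, on 56 and 5 of its 377 UMIs. It was at 50.5 CPM in choroid plexus and hem-like cells and 31.1 CPM in apical progenitor-like label 6. Col15a1, the related collagen of vessel basement membranes, was at 61.4 CPM in endothelial-like cells on 17 UMIs. Col4a5 and Col4a6, chains of another type IV trimer named here after their values were seen, were highest in label 14, at 34.4 and 11.8 CPM, with 2 and 0 UMIs in endothelial-like cells and 0 in mural-like cells.

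**Figure D2:**
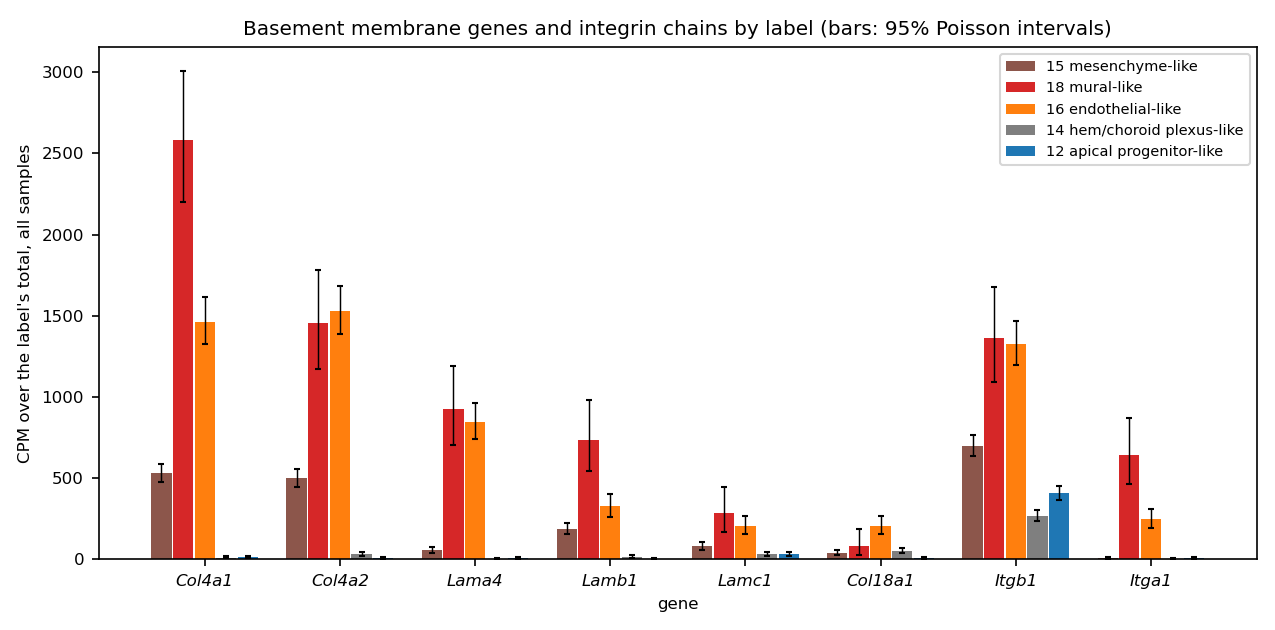
Level in CPM of 8 members of the vessel basement membrane and its receptors in mesenchyme-like (15), mural-like (18), endothelial-like (16), choroid plexus and hem-like (14) and apical progenitor-like (12) labels, with exact Poisson 95% intervals. Col4a1 and Col4a2 were at 528 and 499.6 CPM in label 15 and at 1454 CPM or more in labels 16 and 18.

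Endothelial-like cells of E10.5 had lower levels of type IV collagen and of some laminin chains than those of E18.5. In the 4 samples with at least 5 such cells (10 at E10.5, 6 in E14.5 replicate 1, 8 at E15.5 and 20 at E18.5), Col4a1 was at 718, 1808, 1947 and 1314 CPM. Its interval at E10.5 was 518 to 971 CPM and at E18.5 1116 to 1538 CPM, so the 2 ends did not overlap. The interval at E15.5, 1555 to 2408 CPM, lay above that of E18.5, so the level did not rise throughout. Lama4, the alpha chain of the laminin of vessel walls, was at 359, 1004, 1145 and 1003 CPM, with intervals of 222 to 549 at E10.5 and 831 to 1200 at E18.5. Itgb1 was at 855, 1406, 1466 and 1449 CPM, and Lamb1 at 103, 522, 321 and 413 CPM. Lamc1 was at 120, 241, 160 and 286 CPM, with overlapping intervals at E10.5 (48.1 to 247) and E18.5 (198 to 400). Col18a1 ran the other way, at 291, 121, 137 and 109.5 CPM, with overlapping intervals of 169 to 466 at E10.5 and 58.3 to 187 at E18.5. Each stage is 1 sample with few cells, so no trend over stages was tested in this label.

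Of the 11 laminin chains, 4 reached 50 CPM in a label, and together they make up the alpha 4, beta 1 and gamma 1 trimer of vessels with the addition of gamma 3. Lama4 was at 923 CPM in mural-like cells (59 UMIs, 702 to 1190.2), 845 CPM in endothelial-like cells (234 UMIs, 741 to 961) and 55.9 CPM in mesenchyme-like cells. The highest neural label, label 12, had 7.47 CPM. Lamb1, the beta 1 chain, was at 735 CPM in mural-like cells (540.1 to 977), 325 CPM in endothelial-like cells (261 to 399.7) and 185 CPM in mesenchyme-like cells (153 to 221). In contrast to Lama4 it was found in neurons too, at 54.8 CPM in label 9 and 51.4 CPM in label 2. Lamc1, the gamma 1 chain, was at 281 CPM in mural-like, 206 CPM in endothelial-like and 77.6 CPM in mesenchyme-like cells, and at 30.1 CPM in label 14 and 28.8 CPM in label 12. Lamc3, the gamma 3 chain, rested on 4 UMIs in mural-like cells. Lama2, the alpha chain of the laminin of muscle and brain vessels, stayed below the level, with 43.4 CPM in mesenchyme-like cells on 28 UMIs. An antisense gene model that is not among the deposited genes overlaps the 3' end of Lama2. Its reads cannot be told apart without the strand, which holds for the slopes of Lama2 below as well.

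Itgb1, the common beta chain of collagen, laminin and fibronectin receptors, was the only member at 50 CPM or more in all 19 labels. It was at 1361 CPM in mural-like cells (1089.8 to 1678), 1326 CPM in endothelial-like cells (1194 to 1469), 695 CPM in mesenchyme-like cells (632 to 763) and 573 CPM in microglia and macrophage-like cells (447 to 724). Among neural labels it ran from 406 CPM in apical progenitor-like label 12 (366 to 449) down to 104 and 92.7 CPM in projection neuron-like labels 5 and 11. In this order the intervals of the mural-like and endothelial-like labels overlapped, and so did those of label 15 with label 17 and of label 17 with label 12. The 19 labels thus all held the chain, and the alpha chains that pair with it were more restricted.

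Of 4 collagen-binding alpha chains, Itga1 alone reached 50 CPM. It was at 641 CPM in mural-like cells (41 UMIs, 460.1 to 869.8) and 246 CPM in endothelial-like cells (68 UMIs, 191 to 311), and at most 11.4 CPM in any other label. Of the 3 laminin-binding alpha chains, Itga6 alone did so, at 188 CPM in endothelial-like cells (140.3 to 246), 131 CPM in microglia and macrophage-like cells and 100.4 CPM in apical progenitor-like label 12 (81.1 to 123). It was also at 72.0 CPM in label 14 and 70.6 CPM in label 10, both neural. Itga4, a chain that binds fibronectin and the vascular adhesion molecule VCAM1, was at 343 CPM in endothelial-like, 235 CPM in mural-like and 149 CPM in mesenchyme-like cells, and 32.7 CPM in microglia and macrophage-like cells. Itga9, its close relative, was at 77.6 CPM in mesenchyme-like cells on 50 UMIs. For Itga4 and Itga9 another deposited gene overlaps the 3' end on the opposite strand, as also for Col18a1 and Itgb1bp1. Their reads cannot be told apart without the strand. Itgav, the alpha V chain that binds the RGD sequence of matrix proteins, rested on 4 UMIs in mural-like cells and was next highest in label 12, at 27.8 CPM on 26 UMIs.

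Of the 6 leukocyte chains, 2 reached 50 CPM, both in the microglia and macrophage-like label, while Itgb8 was highest in apical progenitors. Itgam, which encodes CD11b, was at 106 CPM in label 17 on 13 UMIs, and Itgb2, which encodes CD18, at 73.7 CPM on 9 UMIs, with 0 UMIs in the other 18 labels. Itgb5, a partner of alpha V, was at 180.1 CPM there (22 UMIs, 113 to 273) and at 46.6 CPM in mesenchyme-like cells. Itgb8 was at 98.2 CPM in label 12 (92 UMIs, 79.2 to 120.5), 92.2 CPM in label 10, 90.5 CPM in label 1 and 88.4 CPM in label 3, all apical progenitor-like, neighbours that did not differ beyond counting error. It was at 57.6 CPM in label 6 and 53.6 CPM in the interneuron-like label 8, and at 16.2 CPM or less in the projection neuron-like labels, down to 0.671 CPM in label 11. No Itgb8 UMI was counted in labels 16, 17 or 18. Of the symbols that match by spelling only, Col4a3bp was found in every label at 39.2 to 137 CPM and Itgb1bp1 at 20.3 to 62.6 CPM, while Itgb3bp, which also encodes a centromere protein, was highest at 77.8 CPM in label 10, a label led by mitosis genes such as Ube2c and Aspm.

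Apical progenitors and projection neurons were next compared within each of the 6 samples that held at least 20 cells of both, to see which members belong to either side of the neurogenic step. Of 27 members with a mean of at least 5 CPM in either class, 10 were at least 2-fold higher in apical progenitors in the median sample and higher in all 6, and 1, Lamb1, was lower by the same rule. Of 11392 genes at this level, 14.2% were higher and 12.8% lower by this rule. The median log2 ratio, with 5 CPM added to each level, was 0.76 over the 27 members and 0.06 over all genes. This comparison has no test, because the labels came from the same counts.

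The highest median log2 ratio on this scale, where the added 5 CPM lowers the ratio of members near 0 in neurons, was that of Itgb8. It averaged 92.0 ± 13.5 CPM in apical progenitors and 7.17 ± 9.31 CPM in projection neurons (SD over samples, n = 6 each), a log2 ratio of 3.46. Its partner chain Itgav averaged 16.99 ± 7.20 CPM in apical progenitors and 1.33 ± 1.18 CPM in projection neurons (log2 ratio 1.72). Both chains of the receptor that activates latent transforming growth factor beta were thus higher in the progenitors of all 6 samples. Col2a1 averaged 47.4 ± 27.5 CPM in apical progenitors and 0.311 ± 0.552 CPM in projection neurons (log2 ratio 3.29). The laminin receptor chain Itga6 averaged 76.5 ± 34.7 CPM in apical progenitors and 19.6 ± 5.64 CPM in projection neurons (1.60), and Lamc1 averaged 24.4 ± 10.7 CPM in apical progenitors and 5.99 ± 2.15 CPM in projection neurons (1.44). The others past the rule were Col18a1 (1.83), Itgb3bp (1.79), Itgb5 (1.04) and, below 50 CPM in every label, Col4a5 (2.11) and Lamb2 (1.84), the last 2 named because they passed this rule. Itgb1 itself averaged 319 ± 110.0 CPM in apical progenitors and 134 ± 24.7 CPM in projection neurons, a log2 ratio of 0.95 that fell short of 2-fold.

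Lamb1 went the other way. It was at 1.09, 3.56, 10.4, 1.85, 0 and 3.30 CPM in apical progenitors of E12.5, E14.5 replicates 1 and 2, E15.5, E16.5 and E18.5, against 55.9, 37.7, 40.7, 33.2, 27.7 and 30.6 CPM in projection neurons of the same samples, a median log2 ratio of -2.40. The lowest neuron sample lay above the highest apical progenitor sample. The alpha and gamma chains did not share this pattern, since Lamc1 was higher in apical progenitors and Lama4 was below 8 CPM in every neural label.

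**Figure D3:**
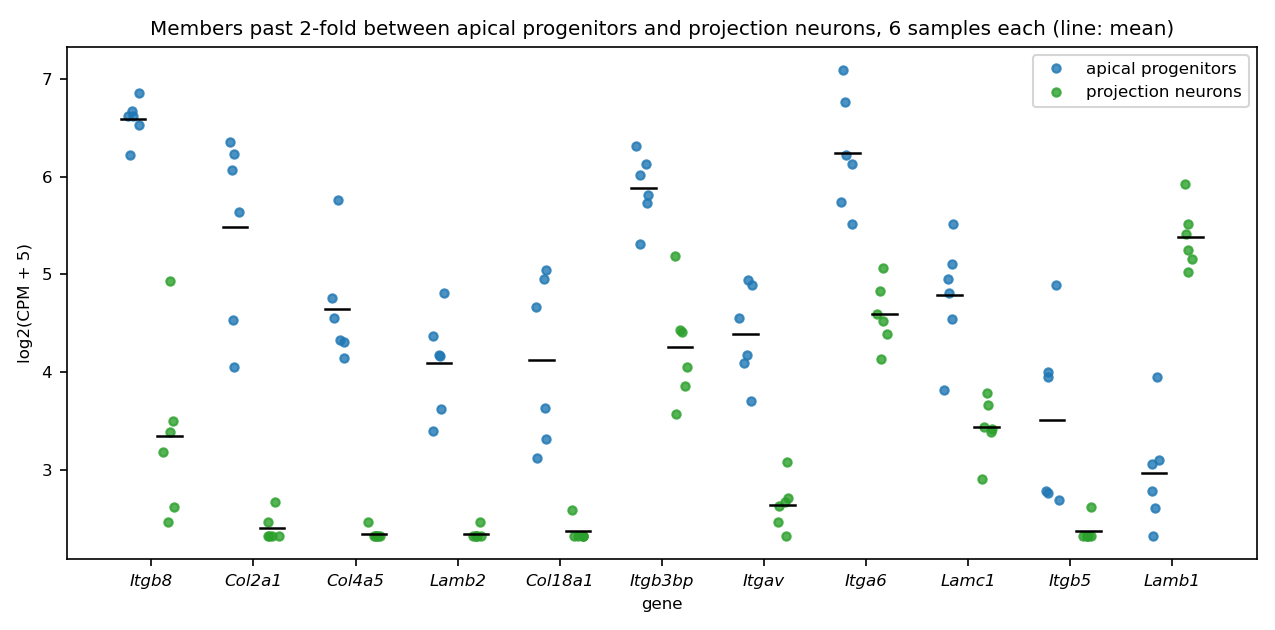
The 11 members past the 2-fold rule, as log2(CPM + 5) in the apical progenitors (left of each pair) and projection neurons (right) of 6 samples, with a line at each class mean. Lamb1 is the one member whose neuron samples, 27.7 to 55.9 CPM, all lie above the apical progenitor samples.

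Whether members changed with stage was tested as a slope on embryonic day over class sums, where a slope of 1 is a doubling per day (edgeR's quasi-likelihood test, two-sided, Benjamini-Hochberg adjustment over all genes tested, threshold 0.05). In apical progenitors, 7 samples with 60 to 1204 cells each, 15 of the 84 members passed the low count filter, and 2 of them, Itgb1 and Col16a1, rose. Of all 8392 genes tested in this class, 9.31% were called, 6.39% higher and 2.92% lower, and the members that passed are those with enough counts, not the whole list. In the order E10.5, E12.5, E14.5 replicates 1 and 2, E15.5, E16.5, E18.5, the level of Itgb1 was 205, 198, 241, 327, 254, 418 and 478 CPM. The last 2 stages were above all earlier samples. Its slope was 0.17 (SE 0.0395, adjusted p = 0.0193). Col16a1 was at 0.351, 0, 6.68, 15.6, 7.40, 18.3 and 21.4 CPM in the same samples, on 1, 0, 15, 6, 4, 5 and 13 UMIs. It was thus near 0 at the first 2 stages and present in all later samples, with a slope of 0.74 (SE 0.183, adjusted p = 0.0258). By edgeR no member was called lower, and those below 0 at an unadjusted p under 0.05 were Col18a1 (slope -0.29, adjusted p = 0.0718) and Itgb3bp (slope -0.11, adjusted p = 0.145). DESeq2 called none lower. Col18a1 was called lower by edgeR with stage rank in place of day (adjusted p = 0.0369), with no low count filter (adjusted p = 0.0386) and without E14.5 replicate 1 (slope -0.34, adjusted p = 0.0400), and Col3a1 with no low count filter (slope -1.16, adjusted p = 0.0459). In all, 8 of the 15 had an unadjusted p under 0.05, against 2138 of all 8392 genes. The median slope was 0.08 over the 15 and 0.0010 over all genes.

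Members that missed the threshold in apical progenitors included Lamc1 (slope 0.27, adjusted p = 0.0769), Itgav (0.25, adjusted p = 0.0649), Col12a1 (0.57, adjusted p = 0.0861) and Itga6 (0.15, adjusted p = 0.156), all in edgeR's quasi-likelihood test. DESeq2 called Lamc1 and Col12a1 higher (adjusted p = 0.0440 and 0.00695). It also called Col9a1 and Col9a3 higher (slopes 0.90 and 0.59, adjusted p = 0.0115 and 0.000237), which did not pass the low count filter. With no such filter, edgeR called these 2 higher too (adjusted p = 0.0152 and 0.00352). Itgb8 was at 55.5, 93.3, 87.3, 93.6, 111, 69.7 and 97.3 CPM over the 7 samples, a slope of 0.08 (adjusted p = 0.307), and Col2a1 and Col11a1 had slopes of 0.04 and 0.07. The labels that made up the class changed with stage: label 6 held 90.8% of its cells at E10.5, and label 12 held 0% at E10.5 and E12.5 and 83.4% at E18.5. Within label 10, Itgb1 was at 199, 228, 222, 278 and 417 CPM in the 5 samples of E12.5 to E16.5, and within label 12 it was at 248, 183, 405 and 491 CPM in those from E14.5 replicate 1, E15.5, E16.5 and E18.5. Without label 12 the slope of Itgb1 was 0.16 (adjusted p = 0.0493). Col16a1 did not pass the low count filter without label 12 or without label 6, so its rise was not tested apart from these labels. Without E12.5, E16.5 or E18.5 the slope of Itgb1 was 0.16, 0.15 and 0.14 and was not called (adjusted p = 0.0525, 0.0507 and 0.156), and without E10.5 or E16.5 that of Col16a1 was 0.68 and 0.71 and was not called (adjusted p = 0.0914 and 0.0528, edgeR). The 7 oligodendrocyte lineage markers together were at 121, 63.5, 34.8, 57.2, 64.8, 289.8 and 1660.4 CPM in the 7 samples. The 20 mesenchyme markers summed to 63.2 CPM at E10.5 and 167 CPM at E18.5 (8 and 12 of them at 0, with Pdgfra, which oligodendrocyte precursors also express, at 1.76 and 90.7 CPM and Prrx1 at 48.1 and 39.6 CPM), the 14 mural markers to 32.3 and 129 CPM (7 and 6 at 0, with Cspg4 at 0.351 and 36.3 CPM), and the 17 endothelial markers to 9.48 and 44.5 CPM (10 and 9 at 0). Lum and Twist2, Kcnj8, Abcc9, Vtn and Higd1b, and Cdh5, Emcn and Tie1 were at 0 in both samples. Other vessel markers were higher at E18.5, among them Ramp2 (1.40 and 21.4 CPM), Tagln (1.76 and 16.5 CPM) and Rgs5 (0 and 13.2 CPM). Pdgfrb, Acta2 and Flt1 were at 0.351, 1.05 and 0 CPM at E10.5 and each at 8.24 CPM at E18.5. Lower at E18.5 were, among others, Notch3 (18.3 and 11.5 CPM) and Egfl7 (5.97 and 0 CPM). The part of these cells in the slopes was not tested.

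**Figure D4:**
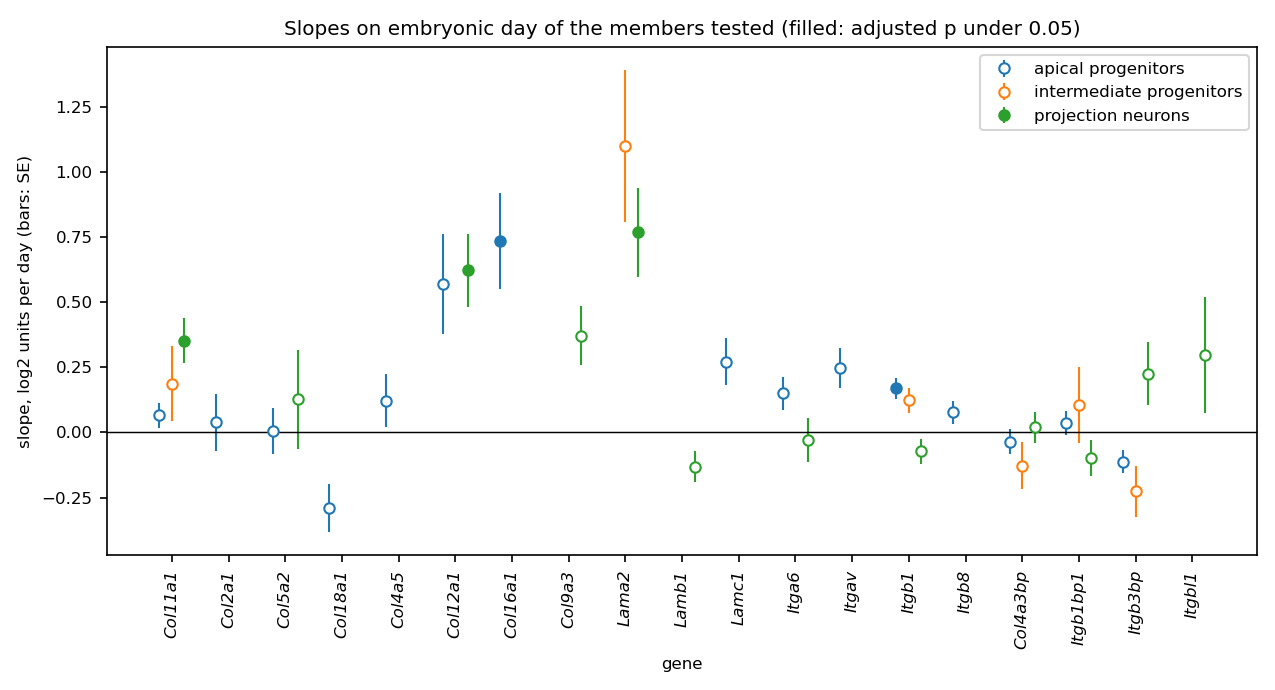
Slope on embryonic day (log2 CPM per day, bars are SE) of the members tested in apical progenitors, intermediate progenitors and projection neurons, with filled points for an adjusted p under 0.05. Filled are Itgb1 and Col16a1 in apical progenitors and Lama2, Col12a1 and Col11a1 in projection neurons, all above 0.

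In intermediate progenitors, 7 samples with 31 to 547 cells each, none of the 6 members tested was called by edgeR's quasi-likelihood test, where 1.42% of 5505 genes were, 0.708% higher and 0.708% lower. Of the 6, 3 had an unadjusted p under 0.05, against 810 of all 5505 genes. DESeq2 called 1 of the 6, Lama2. Lama2 was at 0, 0, 1.18, 21.6, 5.56, 47.6 and 79.6 CPM over the samples from E10.5 to E18.5, on 0, 0, 1, 5, 2, 5 and 9 UMIs. Its slope was 1.10 (SE 0.292, adjusted p = 0.0882) by edgeR, and by DESeq2 its adjusted p was 0.0101. Itgb1 was at 175, 261, 244, 333, 295, 371 and 345 CPM in these samples, a slope of 0.12 that was not called (adjusted p = 0.258).

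In projection neurons, 6 samples from E12.5 with 154 to 817 cells each, 12 members were tested and 3 rose: Lama2, Col12a1 and Col11a1. Of all 9712 genes tested there, 3.08% were called, 2.05% higher and 1.03% lower. Lama2 was at 0, 1.02, 2.71, 4.65, 10.1 and 14.1 CPM (0, 2, 2, 8, 8 and 28 UMIs) at E12.5, E14.5 replicates 1 and 2, E15.5, E16.5 and E18.5. It was higher at each later stage, with a slope of 0.77 (SE 0.170, edgeR adjusted p = 0.0279). Col12a1 was at 0, 9.18, 2.71, 13.4, 7.54 and 31.1 CPM in the same samples, on 0, 18, 2, 23, 6 and 62 UMIs. The E18.5 sample stood above the rest, and the slope was 0.62 (SE 0.139, edgeR adjusted p = 0.0287). Col11a1 was at 13.7, 34.7, 59.7, 73.9, 61.6 and 85.3 CPM. Its lowest sample was E12.5 and its highest E18.5, with a slope of 0.35 (SE 0.0859, edgeR adjusted p = 0.0432). No member was called lower; Lamb1 had a slope of -0.13 (adjusted p = 0.284, the 1 member below 0 at an unadjusted p under 0.05), and DESeq2 called none of the members lower. Itgb8, which did not pass the low count filter in this class, was called higher by DESeq2 (slope 0.83, adjusted p = 0.0192). Over the 12 members 5 had an unadjusted p under 0.05, against 1643 of all 9712 genes. The median slope was 0.18, against -0.00062 over all genes.

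The make-up of the class changed over the same stages: label 9 (led by Crym, Grp and Nrp2) held 0.880% of the neurons at E12.5 and 32.4% at E18.5, and label 5 held 3.23% and 65.7%. Col12a1 in label 9 was at 71.0, 49.7, 32.7 and 82.6 CPM in the samples from E14.5 replicate 1, E15.5, E16.5 and E18.5, a range with no order by stage, and no Col12a1 UMI was found in labels 2 and 11. Col11a1 was higher in label 9 than in other neurons, at 90.7, 177, 119.8 and 148 CPM in these 4 samples, against 11.8, 29.3, 40.2 and 50.3 CPM in label 5. In alternatives chosen after seeing the data, without label 9 the slope of Col11a1 was 0.27 (adjusted p = 0.0898) and that of Lama2 0.86 (adjusted p = 0.0674), and without label 5 the slope of Col11a1 was 0.53 (adjusted p = 0.00540) and that of Col12a1 0.90 (adjusted p = 0.00169), all by edgeR. Col12a1 without label 9 and Lama2 without label 5 did not pass the low count filter. Without E16.5 the slope was 0.35 for Col11a1 (adjusted p = 0.102) and 0.64 for Col12a1 (0.0553), and without E18.5 it was 0.58 for Col11a1 (0.0506). Lama2 was not tested in either case, nor was Col12a1 without E18.5, because they did not pass the filter. Other samples whose absence ended a call left slopes of 0.23 to 0.38 for Col11a1 (E12.5, adjusted p = 0.206; E14.5 replicate 1, 0.0930; the inferred library, 0.0640), 0.57 for Col12a1 (E14.5 replicate 2, 0.0582), and 0.70 and 0.79 for Lama2 (E12.5, 0.0553; E14.5 replicate 2, 0.0522).

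The trends of apical progenitors and projection neurons were then set against each other in 1 model, with the sample as a block, over the 6 samples that held both. Of 19 members tested, 1 had a higher slope in apical progenitors and 2 a lower one, where 4.33% of 10311 genes were called, 2.27% higher and 2.06% lower. Itgb1 separated the classes: its slope was higher in apical progenitors by 0.29 (SE 0.0511, edgeR adjusted p = 0.00284). It was at 198, 241, 327, 254, 418 and 478 CPM in apical progenitors of E12.5, E14.5 replicates 1 and 2, E15.5, E16.5 and E18.5, against 139, 143, 177, 123, 117 and 107 CPM in projection neurons. At each sample the progenitors were above the neurons, and the gap was widest at E18.5. Itgb8 had a slope lower in apical progenitors by 0.87 (difference -0.87, SE 0.139, edgeR adjusted p = 0.00122). It was at 93.3, 87.3, 93.6, 111, 69.7 and 97.3 CPM in apical progenitors, against 1.14, 0.510, 5.43, 4.07, 6.29 and 25.6 CPM in projection neurons, where the UMIs were 1, 1, 4, 7, 5 and 51. The progenitors had no order by stage, and the neurons of E18.5 stood above those of all earlier samples. Col11a1 had a difference of -0.37 (SE 0.0834, edgeR adjusted p = 0.0150), with 45.7, 57.5, 62.4, 81.4, 62.4 and 52.8 CPM in apical progenitors, against 13.7, 34.7, 59.7, 73.9, 61.6 and 85.3 CPM in projection neurons. The progenitors were above the neurons at E12.5 and below them at E18.5.

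Without E18.5 the differences of Itgb8 and Itgb1 were of like size, -0.80 and 0.28, but were not called (adjusted p = 0.397 and 0.0934, edgeR's quasi-likelihood test). At E18.5, Itgb8 was at 105.6 CPM in apical progenitor-like label 12, against 27.1 CPM in neuron label 5 (34 UMIs, 18.8 to 37.9) and 23.8 CPM in neuron label 9 (17 UMIs, 13.9 to 38.1), so both main neuron labels held it. The Cajal-Retzius-like label and the endothelial-like label had 0 Itgb8 UMIs in that sample, where 3 UMIs would be 20.6 and 25.3 CPM. The difference of Col11a1 lost its call without label 9 (-0.25, adjusted p = 0.135), with DESeq2 (adjusted p = 0.140) and without E12.5, E14.5 replicate 1 or E18.5 (adjusted p = 0.0861, 0.0547 and 0.149).

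**Figure D5:**
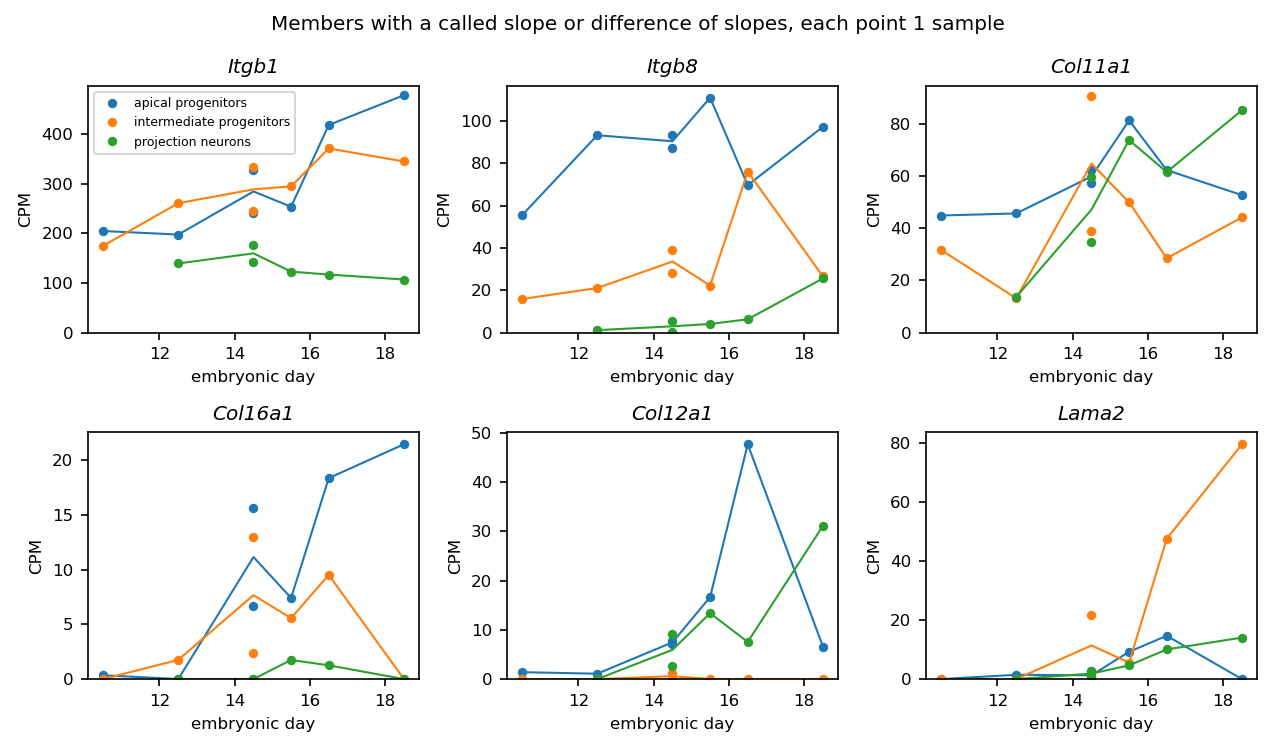
Level in CPM by embryonic day of Itgb1, Itgb8, Col11a1, Col16a1, Col12a1 and Lama2 in apical progenitors, intermediate progenitors and projection neurons, with 1 point per sample and a line through the stage means. Itgb1 reached 478 CPM in apical progenitors of E18.5, against 107 CPM in projection neurons, and Itgb8 reached 25.6 CPM in projection neurons of that stage.

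The wider matrix and adhesion pathway was read from 5 gene lists, chosen with earlier results of these data known. In apical progenitors, 5 of 7 tested genes of a list of integrin ligands and transforming growth factor beta genes rose and none fell (median slope 0.50). Among other matrix receptors 5 of 15 rose and none fell (0.14), and 3 of 6 basement membrane partners rose and 1 fell (0.14). Of the integrin adhesion machinery that links the beta chains to actin, 2 of 28 rose and 1 fell (0.04), and of the collagen synthesis enzymes 1 of 15 rose and none fell (0.08). Over all genes the median slope was 0.0010, and 6.39% rose. Tgfb2, a ligand of the transforming growth factor beta receptors, was at 9.83 CPM at E10.5 and 209 CPM at E18.5 (slope 0.59, SE 0.0737, edgeR adjusted p = 0.000488). Cd9, a tetraspanin that associates with integrins, was at 11.6 and 458 CPM (slope 0.69, adjusted p = 4.40e-06), Mfge8, an RGD-bearing secreted protein, at 12.3 and 594 CPM (0.77, adjusted p = 0.000223), and the glycoprotein Tnc at 0 and 1049 CPM (1.35, adjusted p = 0.000361), all by edgeR. Mfge8 was also among the markers that named the apical progenitors, and Tnc and Mfge8 led label 12. Crk, an adaptor downstream of focal adhesions, fell, with 172 CPM at E10.5 and 74.2 CPM at E18.5 (slope -0.14, adjusted p = 0.0213). The call of Crk was lost under 5 of 19 alternative settings, and those of Tgfb2, Cd9, Mfge8 and Tnc in this class under none. In intermediate progenitors 1 gene of the 5 lists rose, Mfge8 (slope 0.59, edgeR adjusted p = 0.0373). Its call there was lost under 9 of 17 alternative settings, among them stage rank and thinned sums. In projection neurons, 1 of 4 genes of the list of integrin ligands and transforming growth factor beta genes rose, and 2 of 14 other receptors. None of 3 basement membrane partners, 14 collagen synthesis genes and 24 adhesion genes was called. Of these, 3, 5 and 2 had an unadjusted p under 0.05, against 1643 of all 9712 genes.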

How the data were processed

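Drop-seq libraries of CD-1 mouse dorsal forebrain were made with protocol 3.1 and Drop-seq tools 3.1, per the labels' protocols. Genome mm10 and Seurat 3.1.5 are named per the submitters' processing notes. The aligner, the annotation and the counted strand are not given in the sources used here. The values deposited by the authors are raw UMI counts for each gene in each cell, and each cell has 1 of 19 unnamed cluster labels. The fewest genes in a cell were 501 and the highest mitochondrial share was 9.996%.

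Samples were assigned from library names. The 13 cells with over 2% haemoglobin UMIs were set aside. A label was named for the marker list with the most genes that exceeded their level elsewhere by 2-fold, provided that 3 or more did. Label 0 was the exception: it was left unnamed although 6 intermediate progenitor markers did, beside 4 projection neuron markers. Scrublet in scanpy 1.11.5, at an expected rate of 5%, called 95 cells (0.926%) doublets, which were kept. The members, lists and markers were chosen with earlier results of these data known. Genes are named if they reached 50 CPM in a label or were called. From the partner lists, up to 4 called genes per direction and class with the largest slope and a mean of at least 50 CPM are named.

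Counts were summed per class and sample with at least 20 cells, and CPM is over the plain total. edgeR 4.0.16 in R 4.3.3 (filterByExpr, TMM, glmQLFit, glmQLFTest) gave the slopes on embryonic day over 7 or 6 samples, and the difference of slopes was the class by day term, sample being a block. SE is the slope divided by the square root of F. The labels name no litters, so p-values reflect the spread between these samples alone, and that spread may be technical. With simulated counts for the genes tested, 95.9% to 100% of slopes of 0.5 and 100% of slopes of 1 were recovered in the 3 classes, and 0.0967% to 0.185% of unchanged genes were called. Each simulated gene had the spread of the trend over genes, and the make-up of the classes did not change. The recovery thus does not cover genes with a larger spread, and it is pooled over genes of all levels that passed the filter. Lama2 in intermediate progenitors, at a slope of 1.10 and with few UMIs, was not called by edgeR. Whether its spread or its low counts lay behind this was not tested. A member that was not called is therefore not shown to be unchanged. Alternatives were DESeq2 1.42.0, its size factors, no low count filter, stage rank, thinned sums, the E14.5 samples summed, depth and mitochondrial limits, doublets left out, and each sample or chosen labels left out. Gene positions are from GENCODE M21 on GRCm38.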

Additional observations from a re-analysis of the deposited data

Results flagged for a closer look

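For 3 members the trend with embryonic day differed between apical progenitors and projection neurons, by the interaction of class and day in edgeR's quasi-likelihood test over 6 samples, among 19 members tested and with Benjamini-Hochberg adjustment over 10311 genes. Itgb1, the common integrin beta chain, had a slope higher by 0.29 in apical progenitors (SE 0.0511, adjusted p = 0.00284), and its level was higher in progenitors than in neurons in 6 of 6 samples. Itgb8, the partner of alpha V, had a difference of -0.87 (SE 0.139, adjusted p = 0.00122), and in projection neurons it had 1 to 7 UMIs per sample up to E16.5 and 51 at E18.5. Col11a1, a chain of type XI collagen, had a difference of -0.37 (SE 0.0834, adjusted p = 0.0150). Label 12 made up 83.4% of apical progenitors at E18.5, and label 9 32.4% of projection neurons. Without label 9 the difference of Col11a1 was -0.25 (adjusted p = 0.135). None of the 3 differences was called without E18.5. They were then 0.28 for Itgb1, -0.80 for Itgb8 and -0.45 for Col11a1 (adjusted p = 0.0934, 0.397 and 0.149, same test).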

How the results depend on the processing

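No called slope or difference of a member reversed under an alternative in which it was tested: over these 8 results, 29 combinations with an alternative lost the call and the rest kept it. The counts of genes past the threshold moved by more than 1.5 times as follows, and the cause was not tested. In apical progenitors, 781 genes were called, against 1384 with no low count filter, 378 with sums thinned to the smallest, 273 at no more than 5% mitochondrial UMIs, 408 without label 12, and 401 to 886 with 1 sample left out. The 2 members became 6 with DESeq2, 8 with no filter, 4 with stage rank and with the E14.5 samples summed, 1 with thinned sums, doublets left out, label 12 left out or label 6 left out, 0 at no more than 5% mitochondrial UMIs, and 1 to 3 with 1 sample left out. In intermediate progenitors, 78 genes were called, against 142 with DESeq2, 268 with no filter, 47 thinned, 11 at no more than 5% mitochondrial UMIs and 31 to 161 with 1 sample left out. Members there numbered 0, against 1 with DESeq2 or no filter and 0 to 1 with 1 sample left out. In projection neurons, 299 genes were called, against 684 with no filter, 110 at no more than 5% mitochondrial UMIs and 147 to 311 with 1 sample left out. The 3 members there became 5 with no filter, 1 with thinned sums, 1 at no more than 5% mitochondrial UMIs, 1 without label 9, an alternative chosen after seeing the data, and 0 to 3 with 1 sample left out. The 1 member without label 9 was Lamb1 (slope -0.29, adjusted p = 0.0389, edgeR). For the difference of slopes, 446 genes became 143 with DESeq2, 756 with no filter, 274 thinned, 152 at no more than 5% mitochondrial UMIs, 257 without label 12 (chosen after seeing the data) and 171 to 580 with 1 sample left out, and the 3 members became 4 with no filter or with stage rank, where Itgb3bp was called lower (-0.41, adjusted p = 0.0187, and adjusted p = 0.0368 with stage rank, edgeR), and 0 to 3 with 1 sample left out, with 0 without E18.5. Members past the fold between classes numbered 11, and 8 to 14 under the alternatives. With 1 sample at most stages, a slope and the differences between libraries cannot be told apart stage by stage. Members with few UMIs, such as Col16a1, Lama2 and Col12a1, did not pass the filter in several alternatives. No paired analysis was possible because a replicate number is given at E14.5 only, so that stages share no numbers to block on. Comparisons of the classes were made within samples.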
